A study of Bos taurus with 16 samples.

Results

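Creatine kinase B (CKB), the other 3 genes of creatine synthesis and uptake (GATM, GAMT and SLC6A8) and 2 further genes, MDFI and FAM171A2, were followed in the corpus luteum of pregnant cattle. They are 6 of the 27233 genes measured, each matched by its symbol to 1 gene. All 6 passed the filter on low values, an RPKM (reads scaled by gene length and library total) of at least 1 in at least 4 of 16 libraries, which 13361 genes passed. CKB, MDFI and FAM171A2 were selected on their measured fall, by the slope of their level on day: they are among 11 genes, 9 falling and 2 rising, whose linear slope of log2(RPKM + 1) on day passed an adjusted p of 0.05 in limma with Benjamini-Hochberg adjustment. These 11 are 0.0823% of the genes tested. All 3 sat at the edge of that threshold, with an adjusted p of 0.0473, while the next 3 genes by p, TRIL, ECSCR and ADAMTSL1, had 0.0516 and were outside it. The course of CKB, MDFI and FAM171A2 over the days is therefore a description, with no test. GATM, GAMT and SLC6A8 were chosen for their place in the pathway and not for their course, and their tests are given.

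Creatine is made in a pair of steps from arginine, glycine and a methyl group, is taken up from the blood by a transporter, and is charged with phosphate by creatine kinases. Phosphocreatine then serves as a store and shuttle of high-energy phosphate between places where ATP is made and where it is spent. CKB is the cytosolic kinase of brain and other non-muscle tissues, and in the rat uterus it was first known as a protein induced by oestrogen. The corpus luteum is the gland that forms from the ovulated follicle and secretes progesterone, and cattle need it for pregnancy to continue.

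Whole corpora lutea (ovarian tissue) came from cattle 14, 17, 20 or 23 days after breeding, 4 animals for each day. All 16 animals had been bred by a bull at oestrus and then inseminated artificially, and only animals found pregnant were used, so that no group is without pregnancy. The question of the series is which mRNAs change in the gland over this time. Depth was 28.7 to 44.6 M reads per library (median 33.9 M). The tissue label was checked with a list of 9 luteal markers, of which 8 were matched and all 8 passed the filter. HSD3B1, CYP11A1 and STAR, which carry out or feed progesterone synthesis, had lowest levels of 4142, 2922 and 1594 RPKM among the 16 libraries. The 6 skeletal muscle markers summed to between 0.358 and 1.49 RPKM. Because these are bulk samples, fewer cells of a type and less RNA per cell cannot be told apart.

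GATM, the amidinotransferase that joins arginine and glycine in the first step of creatine synthesis, was low in this tissue. Its day 14 libraries had 4.61, 4.30, 5.11 and 2.97 RPKM (replicates 1 to 4), and its day 17 libraries 2.70, 2.97, 2.57 and 2.99. On day 20 the values were 2.67, 3.88, 3.95 and 3.17 RPKM and on day 23 they were 3.81, 2.80, 4.14 and 4.10. The lowest mean was on day 17, and day 14 overlapped with every later day because its replicate 4 stood well under the other 3. Means of the 4 days in turn were 4.25 ± 0.918, 2.81 ± 0.206, 3.42 ± 0.612 and 3.71 ± 0.625 RPKM (SD, n = 4). The day 17 difference from day 14 was −0.45 on the log2(RPKM + 1) scale (SE 0.14, 95% interval −0.75 to −0.14), with an adjusted p of 0.61 in limma over all genes and an unadjusted p of 0.0065. No gene of the 13361 passed in that contrast by limma (0.0%) or by voom on the recovered reads, and 1011 had an unadjusted p under 0.05. The differences of day 20 and day 23 were −0.24 (interval −0.54 to 0.06, adjusted p = 0.72 by limma) and −0.15 (interval −0.45 to 0.15, adjusted p = 0.71). The day 23 value was −0.28 without day 14 replicate 4, −0.07 without day 14 replicate 3 and −0.05 without day 23 replicate 2. GATM did not fall step by step: its mean was higher again after day 17, and its slope was −0.008 ± 0.018 (SE) log2 units per day, with an adjusted p of 0.91 in limma. Day 17 also held the highest red blood cell markers: HBB, a chain of haemoglobin, had a mean of 10.4 ± 9.67 RPKM there, against 0.217 to 0.341 on the other days (SD, n = 4). The 3 red cell markers summed to 1.0 to 22.1 RPKM in the day 17 libraries and to at most 1.14 in any other. Only HBB passed the filter. Its day 17 difference from day 14 was 2.68 on the log2(RPKM + 1) scale and did not pass in limma. The part of the red cell markers in the day 17 value of GATM was not tested.

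GAMT, the methyltransferase that turns the product of GATM into creatine, stood higher than GATM in every library. Its values were 26.5, 19.3, 20.7 and 21.2 RPKM on day 14 and 27.0, 18.3, 25.0 and 28.5 on day 17. On day 20 they were 22.1, 22.2, 20.2 and 28.0 RPKM and on day 23 they were 30.2, 22.0, 21.6 and 28.3. Each later day overlapped with day 14, and the animals of a single day differed by up to 1.55-fold. The means of 21.9 ± 3.16, 24.7 ± 4.48, 23.1 ± 3.39 and 25.5 ± 4.38 RPKM (SD, n = 4) therefore lay within the spread between animals. The day 23 difference from day 14 was 0.21 on the log2 scale (SE 0.15, interval −0.11 to 0.52, adjusted p = 0.60 by limma), and the slope was 0.018 ± 0.015 per day (adjusted p = 0.68). A fall of GAMT by day 23 of more than 0.11 log2 units lies outside that interval.

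SLC6A8, the sodium- and chloride-dependent transporter that takes creatine into cells, had the same mean on days 14, 17 and 23. The values were 23.0, 21.4, 23.0 and 23.5 RPKM on day 14 and 21.9, 22.8, 24.2 and 21.7 on day 17. They were 24.8, 20.2, 19.7 and 15.2 RPKM on day 20 and 28.1, 22.8, 22.4 and 17.7 on day 23. The first 2 days were tight, with a coefficient of variation of 3.9% and 5.1%, and the last 2 were wider, with 19.7% and 18.6%, and no day stood apart from day 14. Means were 22.7 ± 0.889, 22.7 ± 1.15, 20.0 ± 3.94 and 22.7 ± 4.23 RPKM (SD, n = 4). The day 23 difference from day 14 was −0.02 (interval −0.29 to 0.26, adjusted p = 0.97 by limma), and that of day 20 was −0.20 (interval −0.47 to 0.08, adjusted p = 0.77). Leaving out replicate 4 of day 20 gave −0.08 for the latter, and leaving out replicate 1 of that day gave −0.30. The difference in spread between days was not tested.

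CKB, the kinase itself, had the highest level of the 6 genes on day 14 and the steepest slope. Its day 14 libraries had 30.7, 31.8, 50.4 and 77.5 RPKM, and its day 17 libraries 26.2, 45.7, 27.6 and 30.4. On day 20 the values were 33.8, 23.4, 19.9 and 26.0 RPKM and on day 23 they were 14.9, 12.0, 20.1 and 6.41. All 4 libraries of day 23 were below all 4 of day 14, while on day 17 and on day 20 3 of 4 were below and the remaining 1 overlapped. Across the genes tested, 4.81% had all day 23 libraries below day 14, 2.88% all day 20 libraries and 1.21% all day 17 libraries. Means of the 4 days in turn were 47.6 ± 21.9, 32.5 ± 9.0, 25.8 ± 5.89 and 13.4 ± 5.72 RPKM (SD, n = 4), so that the day 14 mean was 3.57 times that of day 23.

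**Figure D1:**
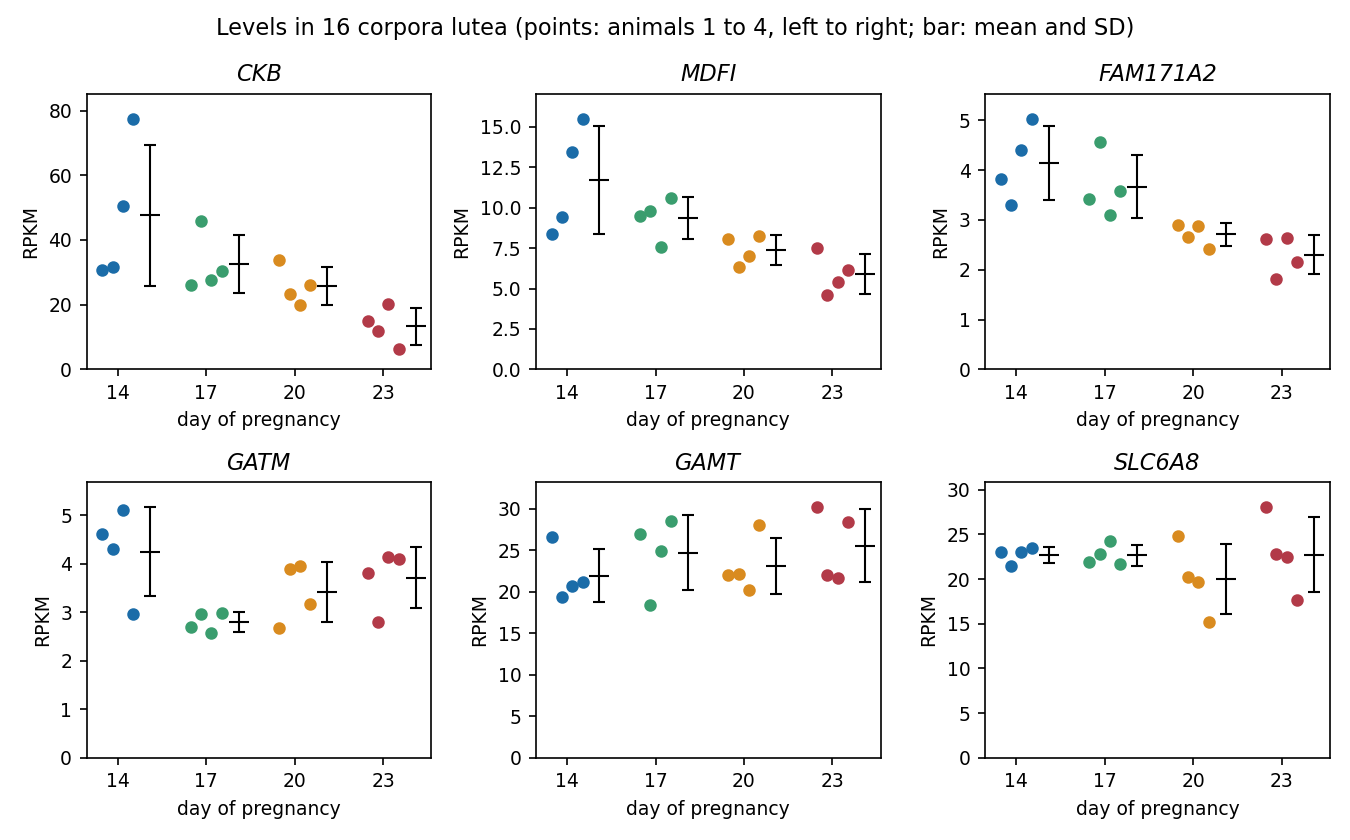
RPKM (vertical axis, from 0, own scale per gene) of the 6 genes by day of pregnancy; each point is 1 animal, replicates 1 to 4 from left to right, and the bar beside them is the mean with its SD (n = 4). CKB goes from a mean of 47.6 to 13.4, MDFI from 11.7 to 5.90 and FAM171A2 from 4.14 to 2.30, while GATM, GAMT and SLC6A8 overlap with day 14 on every later day.

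On the log2(RPKM + 1) scale CKB stood at −0.47, −0.78 and −1.76 relative to day 14 on days 17, 20 and 23 (SE 0.32 each). Only 4 of the 13361 genes had a lower slope than its −0.186 ± 0.034 (SE) log2 units per day. The steps between neighbouring days were uneven: −0.47, then −0.31, then −0.97 between day 20 and day 23, and neighbouring days overlapped at each step. Animals of 1 day differed from the lowest to the highest by 2.52-fold, 1.74-fold, 1.70-fold and 3.13-fold on the 4 days in turn. These spreads were far wider than the error of counting, since CKB held 300 to 3468 reads per library, for a counting error of 2.16% to 4.18% against a coefficient of variation of 22.8% to 46.0%. The coefficient of variation of CKB was 46.0%, 27.7%, 22.8% and 42.8% on the 4 days in turn. Averaged over the 4 days for each gene, its median over the genes tested was 13.5%.

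The size of the fall of CKB rested in part on replicates 3 and 4 of day 14, its highest libraries. Without them, an alternative added after the data were seen, the differences from day 14 were 0.02 on day 17, −0.29 on day 20 and −1.27 on day 23. The day 23 libraries stayed below the remaining day 14 libraries, of which the lower had 30.7 RPKM.

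MDFI, known in the mouse as an inhibitor that holds myogenic transcription factors in the cytoplasm, and that also binds proteins of WNT signalling, fell in even steps. Its values were 8.41, 9.42, 13.5 and 15.5 RPKM on day 14 and 9.48, 9.83, 7.56 and 10.6 on day 17. They were 8.05, 6.30, 7.0 and 8.24 RPKM on day 20 and 7.48, 4.57, 5.39 and 6.16 on day 23. Day 17 overlapped with day 14, but all libraries of day 20 and of day 23 were below all of day 14. Over the genes tested this held for 2.88% on day 20 and 4.81% on day 23, and MDFI was chosen for its fall. Means were 11.7 ± 3.36, 9.37 ± 1.29, 7.40 ± 0.910 and 5.90 ± 1.24 RPKM (SD, n = 4), for a day 14 mean 1.98 times that of day 23. The steps were −0.26, −0.30 and −0.29 on the log2 scale, and the differences from day 14 were −0.26, −0.57 and −0.86 (SE 0.17). Replicates 3 and 4 of day 14 were again the highest of all 16, and without them the differences were 0.06, −0.24 and −0.54.

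FAM171A2 is a membrane protein whose gene in humans has been linked to the level of progranulin. Of the 6 genes it had the lowest mean RPKM on days 14, 20 and 23, but not on day 17. Its values were 3.82, 3.30, 4.40 and 5.03 RPKM on day 14 and 3.41, 4.57, 3.11 and 3.59 on day 17. They were 2.90, 2.65, 2.89 and 2.42 RPKM on day 20 and 2.61, 1.81, 2.63 and 2.16 on day 23. FAM171A2 divided the days most cleanly: all 8 libraries of days 20 and 23, at 1.81 to 2.90 RPKM, were below all 8 of days 14 and 17, at 3.11 to 5.03. Such a division was found for 12 of the genes tested (0.0898%), and the choice of FAM171A2 for its fall bears on it. Means were 4.14 ± 0.748, 3.67 ± 0.632, 2.71 ± 0.230 and 2.30 ± 0.395 RPKM (SD, n = 4), for a day 14 mean 1.80 times that of day 23. The differences from day 14 were −0.14, −0.46 and −0.63 on the log2(RPKM + 1) scale (SE 0.13), a scale that understates the change of a gene this low, and the largest step, −0.32, was that from day 17 to day 20. With a pseudocount of 0.1 in place of 1 the day 23 difference was −0.82, and without replicates 3 and 4 of day 14 the 3 differences were 0.03, −0.30 and −0.47.

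The word steady in the choice of these genes holds for CKB, MDFI and FAM171A2 in that both the mean and the median were lower at each of the 3 steps. Of all genes tested, 7.94% had a mean and 7.39% a median that was lower at each step, and 3.55% a mean that was higher at each step. GATM, GAMT and SLC6A8 had neither course. None of the 6 genes had a later day wholly above day 14, which 2.06%, 2.33% and 2.15% of genes had on days 17, 20 and 23. None had a day 23 wholly below all 3 earlier days, which 0.479% of genes had: CKB missed it by 1 library, 20.1 RPKM on day 23 against 19.9 on day 20. Without replicates 3 and 4 of day 14, CKB, MDFI and FAM171A2 each had a day 17 difference above 0. Those animals were the highest of day 14 in all 3 genes, so leaving them out lowers the day 14 mean by construction. Without replicate 4 of day 14 alone, the day 17 differences of CKB, MDFI and FAM171A2 were −0.204, −0.125 and −0.0546. In the median gene the differences from day 14 were 0.013, −0.015 and −0.026 on days 17, 20 and 23.

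**Figure D2:**
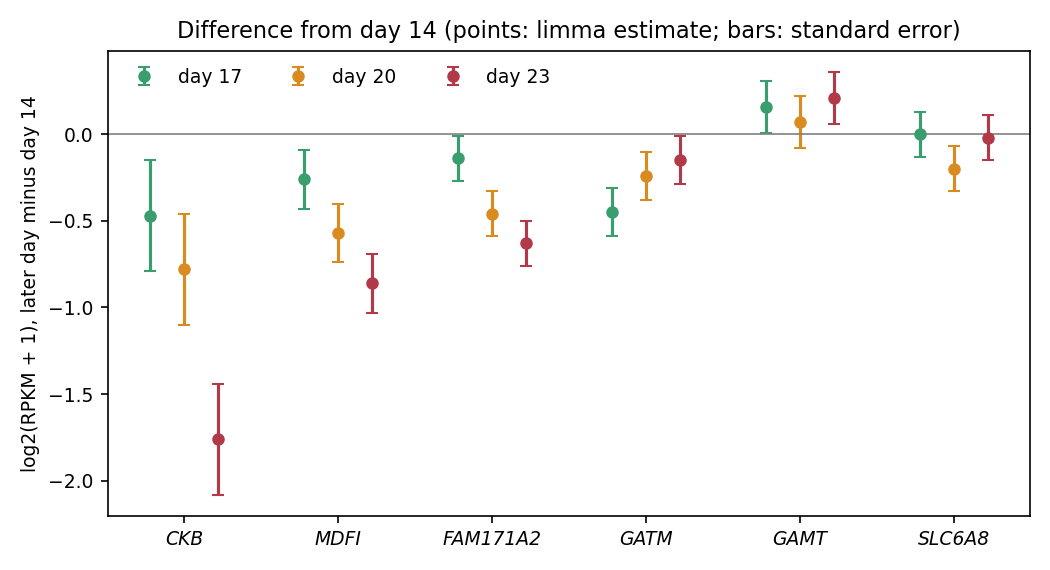
Difference of log2(RPKM + 1) from day 14 (vertical axis) for each of the 6 genes on days 17, 20 and 23. Points are limma estimates and bars the standard errors of these differences, with the spread estimated over all 16 libraries (4 animals a day). CKB, MDFI and FAM171A2 go lower with each day, down to −1.76, −0.86 and −0.63, whereas GATM is lowest on day 17, at −0.45, and GAMT stays above 0.

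The order of the 6 levels, which RPKM allows since it is per length, changed over the days. On day 14 CKB led, its lowest library of 30.7 RPKM lying above the highest of GAMT, 26.5. SLC6A8 and GAMT came next and overlapped with each other, then came MDFI, and GATM and FAM171A2 overlapped at the bottom. On day 23 all CKB libraries, at 6.41 to 20.1 RPKM, were below all GAMT libraries, at 21.6 to 30.2, and they overlapped with SLC6A8, at 17.7 to 28.1. MDFI, at 4.57 to 7.48 RPKM, then overlapped with CKB, and GATM, at 2.80 to 4.14, no longer overlapped with FAM171A2, at 1.81 to 2.63. Averaged over the 16 libraries, CKB was above 78.8% of the genes tested and FAM171A2 above 20.4%.

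CKB was nearly the whole of the creatine kinase mRNA. Of the RPKM summed over 4 kinase genes it made a median of 96.5%, 93.7%, 95.5% and 90.6% on the 4 days in turn, and on day 23 the lowest library, replicate 4, was at 77.9%. The summed kinase level went from 49.2 ± 22.3 RPKM on day 14 to 14.9 ± 5.67 on day 23 (SD, n = 4). CKMT2, the mitochondrial kinase of striated muscle, was the next, with means of 1.25 ± 0.463, 1.47 ± 0.190, 0.976 ± 0.513 and 1.38 ± 0.415 RPKM on days 14, 17, 20 and 23 (SD, n = 4). Its slope was −0.003 ± 0.021 per day, with an adjusted p of 0.98 in limma. CKMT1A, the mitochondrial kinase of other tissues, was below the filter, with day means of 0.145 to 0.370 RPKM. CKM, the muscle kinase, had at most 0.0341 RPKM in any library.

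Of 10 symbols of creatine and phosphagen genes, 8 were found and 6 passed the filter. Their slopes were below 0 in 5 and above 0 in 1, and over all genes tested 58.2% were below 0. The median slope of the 6 was −0.008, against −0.0034 over all genes. The threshold was passed by CKB alone, against 0.0674% of all genes for a fall, and CKB was chosen for it. SLC16A12, known in humans as a second creatine transporter, had the highest level of the pathway, with means of 68.8 ± 8.29, 55.3 ± 14.6, 51.2 ± 5.87 and 63.3 ± 16.7 RPKM (SD, n = 4). It was lowest on day 20 and its slope of −0.017 ± 0.022 per day had an adjusted p of 0.81 in limma.

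**Figure D3:**
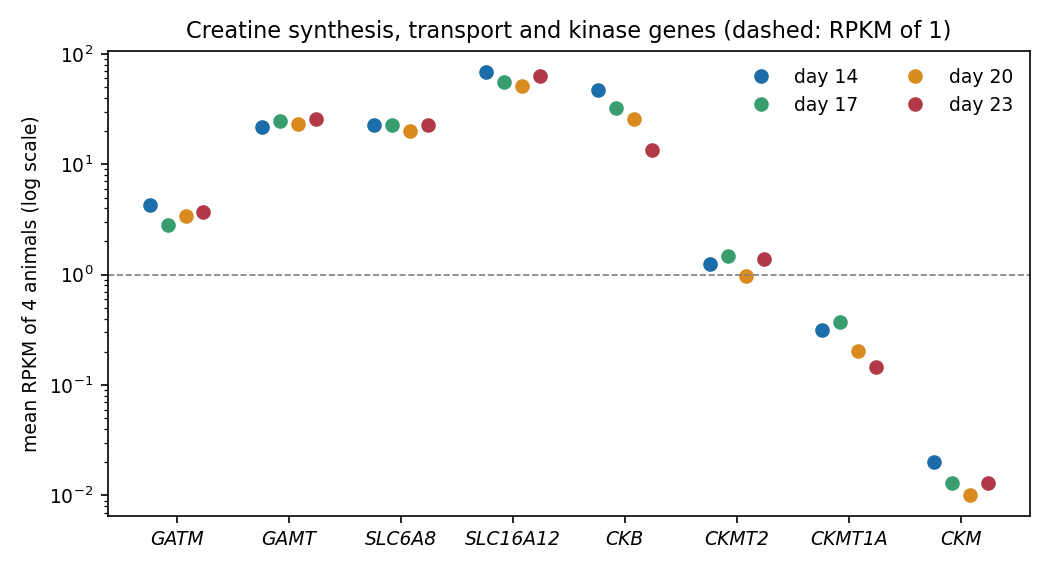
Mean RPKM of 4 animals (vertical axis, log scale) on days 14, 17, 20 and 23 for 8 genes of creatine synthesis, transport and kinases; the dashed line marks an RPKM of 1. CKB alone goes down over all 4 days by more than 3-fold, from 47.6 to 13.4, and CKMT1A and CKM lie below the line on every day.

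Genes that supply creatine synthesis had slopes of both signs. Of 25 genes of the methionine cycle, arginine and glycine supply, 16 passed the filter, with 6 slopes below 0 and 10 above, a median slope of 0.004, and none past the threshold. The most abundant were AHCY, which clears the by-product of methyl transfer, with 85.3 ± 2.39 RPKM on day 14 and 84.0 ± 6.33 on day 23, and MAT2A, which makes the methyl donor, with 75.0 ± 13.8 and 70.1 ± 5.48 (SD, n = 4). The lowest unadjusted p of this list, named after its values were seen, was that of SHMT2, a mitochondrial enzyme that makes glycine, with 27.4 ± 2.92, 27.4 ± 2.16, 24.0 ± 1.11 and 21.6 ± 2.38 RPKM on the 4 days. Its slope was −0.039 ± 0.010 per day (adjusted p = 0.09 by limma). Of 27 genes of adenylate and nucleotide phosphotransfer and energy sensing, 21 passed the filter, with 12 slopes below 0 and 9 above, a median of −0.001, and none past the threshold. NME2, a nucleoside diphosphate kinase, had 133 ± 10.9 RPKM on day 14 and 109 ± 11.5 on day 23 (slope adjusted p = 0.14 by limma). PRKAG2, a subunit of the AMP-activated kinase, had 79.0 ± 9.06 and 61.4 ± 25.9 (adjusted p = 0.53). At an unadjusted slope p under 0.05 were 13.2% of all genes (9.08% falling), 1 of these 16 genes and 3 of these 21.

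Of 6 genes known to act on CKB in other tissues or cells, among them the oestrogen and progesterone receptors, SP1 and SP3, 5 passed the filter, with 2 slopes below 0, 3 above, and none past the threshold. SP3 had means of 16.6 ± 0.307 RPKM on day 14 and 17.2 ± 1.73 on day 23 (SD, n = 4; slope adjusted p = 0.96 by limma). ESR1, the oestrogen receptor alpha, named after its values were seen, had 10.6 ± 0.437, 8.25 ± 1.24, 10.2 ± 2.86 and 13.7 ± 2.69 RPKM on the 4 days (adjusted p = 0.43).

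Of 17 genes made up of MDFI and its relatives and partners, 11 passed the filter. They had 8 slopes below 0 and 3 above and a median of −0.020, and 58.2% of all genes had a slope below 0. The only gene past the threshold was MDFI itself, which was chosen for it. Its paralogue MDFIC had 10.1 ± 2.48 RPKM on day 14 and 8.51 ± 0.985 on day 23 (slope adjusted p = 0.66 by limma). Of the myogenic factors that MDFI is named for, MYOD1 and MYOG were at 0 in all 16 libraries, and MYF5 had at most 0.0736 RPKM. MYF6 was below the filter but measured in every library, at 0.285 to 0.789 RPKM. HAND1, a factor of heart and placenta, had at most 0.0168 RPKM. LEF1 and TCF7, transcription factors of WNT signalling that were picked after their values were seen, had their highest day 14 libraries in replicates 3 and 4, as MDFI did. LEF1 had means of 4.76 ± 1.78 RPKM on day 14 and 1.76 ± 0.281 on day 23 (slope adjusted p = 0.17 by limma), and TCF7 7.08 ± 2.25 and 4.44 ± 1.01 (adjusted p = 0.29). Their slopes were −0.097 and −0.058 per day. TCF7L1, TCF7L2 and AXIN1 of the same list had slopes of −0.004, 0.008 and −0.003 (adjusted p = 0.95, 0.83 and 0.93 by limma).

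In the FAM171 family, FAM171A2 included, and the genes of progranulin handling, 8 of 8 passed the filter. They had 5 slopes below 0 and 3 above and a median of −0.009, against 58.2% of all genes below 0. The only gene past the threshold was FAM171A2, which was chosen for it. FAM171A1 was the most abundant of the family, with means of 42.3 ± 2.15, 50.5 ± 4.77, 45.8 ± 3.52 and 41.3 ± 2.17 RPKM, and did not have the course of FAM171A2 (slope adjusted p = 0.84 by limma). FAM171B had 1.54 ± 0.430 RPKM on day 14 and 1.33 ± 0.275 on day 23 (adjusted p = 0.82). CTSL, a lysosomal protease, named after its values were seen, had 1.82 ± 0.792, 1.01 ± 1.42, 0.764 ± 0.582 and 0.569 ± 0.415 RPKM on the 4 days, lower in mean at each step (slope −0.084 per day, unadjusted p = 0.038, adjusted p = 0.34 by limma). GRN, the progranulin gene and the neighbour of FAM171A2 in the RefSeq gene table, had 98.8 ± 9.77, 107 ± 15.7, 104 ± 5.91 and 92.7 ± 13.5 RPKM (SD, n = 4; adjusted p = 0.79).

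The deviations of single animals from the mean of their day were compared in all 15 pairs of the 6 genes over the 16 libraries. They entered the choice of CKB, MDFI and FAM171A2 through the spread that the slope test uses, so the comparison is not independent of that choice. No pair passed an adjusted p of 0.05 by an exact two-sided permutation test within days, over 331776 pairings, with Pearson's r or with Spearman's rho. The highest was CKB with FAM171A2, with r = 0.72 (permutation p = 0.011, adjusted 0.17), rho = 0.71 (p = 0.015, adjusted 0.22) and r = 0.73 without the 2 libraries farthest from the median of CKB. MDFI with FAM171A2 had r = 0.66 (permutation p = 0.031, adjusted 0.23), rho = 0.65 (p = 0.037, adjusted 0.28) and r = 0.59 without 2 libraries. CKB with MDFI had r = 0.53 (permutation p = 0.12, adjusted 0.43), rho = 0.57 and r = 0.55 without 2 libraries. On day 14 all 3 genes were below the mean of the day in replicates 1 and 2 and above it in replicates 3 and 4. Day 17 had all 3 on the same side of its mean only in replicates 2 and 3. Days 20 and 23 had this only in replicates 1 and 2. CKB had no positive relation to the synthesis genes, with r = −0.37 to GATM (permutation p = 0.27, adjusted 0.58) and r = −0.38 to GAMT (p = 0.19, adjusted 0.47).

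Endothelial markers were lowest on day 23, though none passed the threshold. All 8 of 8 had a slope below 0, with a median of −0.048, and 58.2% of all genes tested had a slope below 0. At an unadjusted p under 0.05 in limma 5 of the 8 were falling, against 9.08% of all genes. The summed level of the 8 markers over the 4 days was 344 to 532, then 420 to 478, then 369 to 439 and last 300 to 339 RPKM. Its mean was 435 ± 86.2 RPKM on day 14 and 445 ± 28.8 on day 17 (SD, n = 4). CDH5, the cadherin of endothelial junctions, had 63.9 ± 9.28 RPKM on day 14 and 46.4 ± 4.17 on day 23, and KDR, a receptor for vascular growth factor, 96.5 ± 18.7 and 66.2 ± 5.71 (SD, n = 4; slope adjusted p = 0.072 and 0.11 by limma). EGFL7, a protein secreted by endothelial cells, had 121 ± 47.4 and 90.1 ± 15.8 RPKM (adjusted p = 0.38). On day 14 the sum was 344, 383, 480 and 532 RPKM in replicates 1 to 4. CKB and MDFI stood in the same order, and FAM171A2 did not. From day 14 to day 23 the mean of the sum went from 435 to 321 RPKM. The part of the endothelial markers in the fall of CKB, MDFI and FAM171A2 was not tested.

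Within days, the 6 genes were set against the summed markers of 7 cell types, 42 relations chosen after the data were seen, and 2 passed by Pearson's r and none by Spearman's rho after adjustment. MDFI varied with the endothelial sum, with r = 0.85 (permutation p = 0.0018, adjusted 0.038), rho = 0.77 (p = 0.015, adjusted 0.32) and r = 0.74 without the 2 libraries farthest from the median of MDFI. CKB and FAM171A2 had r = 0.49 (permutation p = 0.15, adjusted 0.49) and r = 0.50 (p = 0.13, adjusted 0.49) with the same sum. The deviations of MDFI, CKB and FAM171A2 entered their choice, so these relations are not independent of that choice. GAMT had r = 0.71 with T and natural killer cell markers (permutation p = 0.0015, adjusted 0.038), rho = 0.74 (p = 0.0032, adjusted 0.14) and r = 0.67 without 2 libraries. Of the other cell types, the sum of 8 luteal markers ranged from 19786 to 21943 RPKM on day 14 and from 18604 to 22770 on day 23, with 4 slopes below 0 and 4 above. Only OXT, oxytocin, passed the threshold among them, with 4197 ± 1206 RPKM on day 14 and 1304 ± 528 on day 23. Pericyte and smooth muscle, fibroblast, macrophage, T and natural killer, neural and glial and red blood cell markers had none past the threshold, with 3 of 8, 2 of 6, 1 of 5, 0 of 5, 0 of 4 and 1 of 1 slopes below 0.

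**Figure D4:**
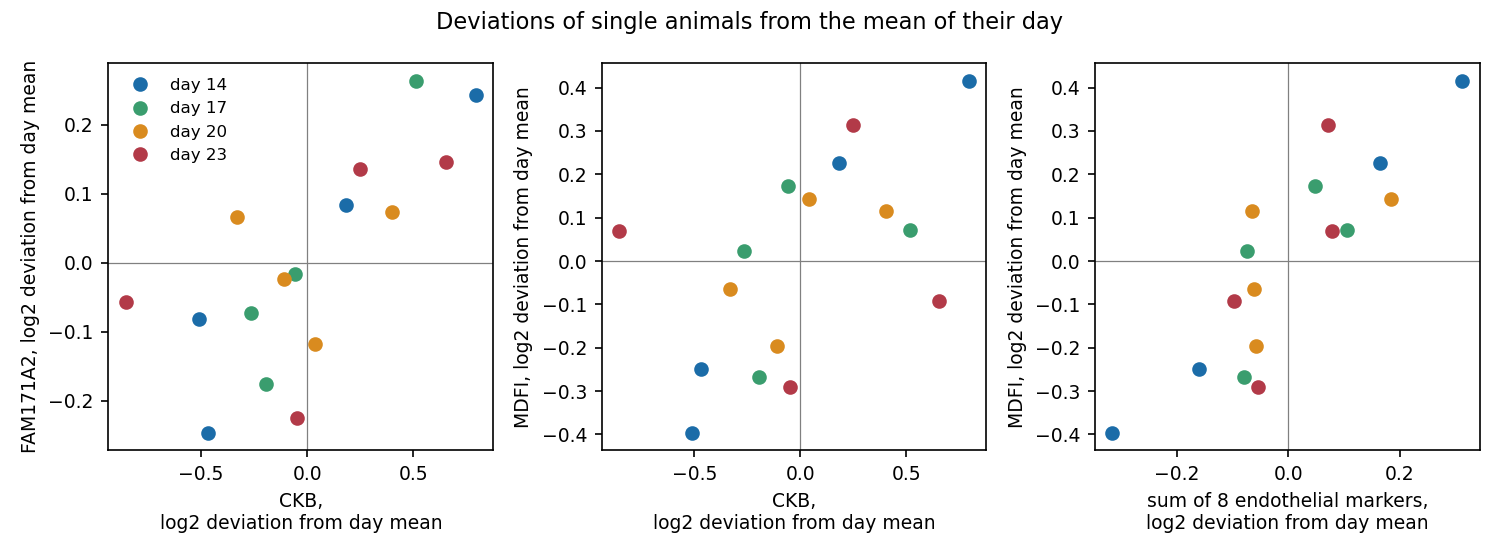
Deviation of each of 16 animals from the mean of its day on the log2 scale: FAM171A2 against CKB (left), MDFI against CKB (middle) and MDFI against the sum of 8 endothelial markers (right), with colours for the 4 days. The points of FAM171A2 and CKB have r = 0.72, those of MDFI and CKB 0.53, and those of MDFI and the endothelial sum 0.85.

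The genes most like CKB over the 16 libraries, by Pearson's r of log2(RPKM + 1) as a description, were LDHA and CLEC14A (r = 0.93 each), and PKNOX2, MRGBP and GJC1 (0.90 each). LDHA, the lactate dehydrogenase subunit of glycolysis, had means of 10.9 ± 3.42, 9.77 ± 1.66, 8.10 ± 1.46 and 6.58 ± 1.75 RPKM. CLEC14A, a lectin of endothelial cells, had 72.8 ± 16.2 RPKM on day 14 and 48.3 ± 10.1 on day 23. Among the 13360 other genes FAM171A2 ranked 12th and MDFI 50th in likeness to CKB, which their choice for a fall bears on. With the day means removed, the most alike were STT3B (r = 0.92), LDHA (0.91), MRGBP (0.89), CEP290 (0.89) and EPAS1 (0.88), and FAM171A2 and MDFI ranked 102nd and 894th. LDHA and MRGBP thus stood among the 5 most alike by both measures. EPAS1, the hypoxia-inducible factor 2 alpha, had 188 ± 52.8 RPKM on day 14 and 147 ± 13.8 on day 23.

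For MDFI the most alike over the 16 libraries were CEP55 (r = 0.93), a protein of the last step of cell division, and the kinases MAP4K4 (0.93) and PRKD2 (0.92). With day means removed they were MBD5 (0.92), PLCG1 (0.91) and PPP1R9B (0.90). For FAM171A2 they were the phosphatase MTMR2 (0.93), the apelin receptor APLNR (0.92) and the transcriptional repressor BCL6B (0.92), and with day means removed MEX3D (0.93), FBXL8 (0.92) and SMAP2 (0.90). APLNR had 33.1 ± 14.1 RPKM on day 14 and 14.4 ± 2.00 on day 23, and BCL6B 20.3 ± 4.85 and 8.29 ± 1.43 (SD, n = 4). BCL6B is itself one of the 11 genes past the slope threshold. Besides it and CKB, MDFI and FAM171A2, these are HSPE1, PCDH12, OXT, PLOD3 and FAM167B, which fell, and APOD and IFIT1, which rose.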

How the data were processed

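Messenger RNA of 16 corpora lutea was sequenced from TruSeq Stranded mRNA libraries, per the labels' protocols. In the submitters' processing notes stand the build ARS-UCD1.2 and the tools featureCounts 1.5.3, HISAT2 2.1.0, bedtools 2.26.0, FastQC and DESeq2, without settings. The strand setting of counting was not stated there. The authors deposited RPKM per gene and library, which divides by gene length and library total. Their deposited p-value columns do not name a comparison and were not used. RPKM steps gave back whole reads for all 21090 genes above 0 (tolerance 0.001 reads). Counting error is that of reads, not of molecules.

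Genes that reached 1 RPKM in 4 or more libraries were tested as log2(RPKM + 1) with limma 3.58.1 in R 4.3.3 (intensity trend, 12 residual degrees of freedom), in 1 model of all 4 days and with a linear slope on day. P-values are two-sided and adjusted by Benjamini-Hochberg over 13361 genes. Levels are as deposited, without further scaling. Correlations used Python 3.11.15 with scipy 1.17.1 and were tested by permuting libraries within days. The scripts were tested on simulated data. The 6 genes, the gene lists and the tests were chosen with earlier results of these data known. Of each gene list, and of the luteal and endothelial markers, the genes past the slope threshold are named, or else the 2 with the highest mean RPKM, together with the 5 genes most like CKB and the 3 most like MDFI and FAM171A2, by each measure. CKMT1A, CKM, SLC16A12, CKMT2, CDH5, HSD3B1, CYP11A1, STAR, MDFIC, MYOD1, MYOG, MYF5, MYF6, HAND1, FAM171A1, FAM171B, GRN, LEF1, TCF7, TCF7L1, TCF7L2, AXIN1, SHMT2, CTSL and ESR1 fall outside that rule. A gene that the rule names is not reported here. Alternatives were pseudocounts of 0.1 and 0.5, other filters, median-ratio and quantile scaling, a replicate block, no trend, voom on the recovered reads, fits to 8 libraries of 2 days, and leaving out each library.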

Additional observations from a re-analysis of the deposited data

How the results depend on the processing

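Counts of genes past a threshold were small and moved with the settings. The slope on day counted 11 genes, and 37 with a pseudocount of 0.5, 1 with no filter on low values, 43 with a mean RPKM of at least 5, 45 with quantile normalization, 4 with no intensity trend, 2 with voom on the recovered reads and 2 without replicates 3 and 4 of day 14, an alternative added after the data were seen. It counted 1 to 102 with 1 library left out. Day 23 against day 14 counted 0, and 2 with no filter, 2 with a mean RPKM of at least 5, 13 with only the 8 libraries of those days and 0 to 22 with 1 library left out. Day 20 counted 0, and 1 with a pseudocount of 0.1, 20 with only the 8 libraries of those days and 0 to 32 with 1 left out. Day 17 counted 0, and 0 to 1 with 1 left out, and the F test over days 0, and 0 to 22. At an unadjusted p under 0.05 limma counted 1011 genes on day 17, 1084 on day 20, 1679 on day 23 and 1561 by the F test, and voom counted 0 past the adjusted threshold in each. The creatine list held 1 gene past the threshold, CKB, and 0 with no filter, no trend, voom or without replicates 3 and 4 of day 14, and 0 to 1 with 1 library left out. No pair of the 6 genes passed, and 0 to 1 did with 1 library left out. The cause of these moves was not tested.

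The replicate numbers did not pair the libraries: deviations of same-numbered libraries correlated at −0.23 to 0.21 (median 0.03), 5 of 24 above 0.1, and 3 of 16 libraries correlated best with their own number. With the replicate block the slope counted 2 genes, day 23 against day 14 counted 2 and the creatine list 0.

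CKB and MDFI passed the slope threshold that chose them in 5 of 9 other settings and FAM171A2 in 5 of 8, and with 1 of 16 libraries left out in 5, 6 and 7 cases. Their day 23 differences then ranged from −1.97 to −1.47, from −0.99 to −0.72 and from −0.72 to −0.55. Differences near 0 changed sign. For SLC6A8 on day 23 these gave 0.0188 with median-ratio scaling, 0.000138 with quantile normalization, 0.0199 with voom and 0.016 without replicates 3 and 4 of day 14, which gave 0.0268 on day 17. With 1 library left out SLC6A8 ranged from −0.0365 to 0.0139 on day 17 and from −0.118 to 0.0934 on day 23, on day 20 from −0.302 to −0.0779, GAMT from 0.0835 to 0.287 on day 17, from −0.0201 to 0.163 on day 20 and from 0.123 to 0.297 on day 23, GATM from −0.575 to −0.367, from −0.371 to −0.156 and from −0.276 to −0.0478 on days 17, 20 and 23, and the slope of GATM from −0.015 to 0.00454.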
